A study of Arabidopsis thaliana with 60 samples.

Results

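Stem transcripts that were higher after every leaf stress, at every time, are described here for an Arabidopsis thaliana RNA sequencing experiment. The set holds 26 of the 32833 genes measured, chosen by their stem levels: averaged over the 27 stem libraries a gene had to reach 50 normalized counts, and in each of the 8 stressed stem groups its mean had to be 1.5 times the stem control mean or more. Of the 15912 genes that reached a mean of 50 in stem, they make up 0.163%. The mirror rule, at least 1.5-fold lower in each of the 8 groups, took 128 genes, or 0.804%. Because the means of stressed and control stems chose the 26 genes, their difference from the stem control is described and carries no test. Tests are given for treated leaves, which the rule did not use. Stressed stems are also tested against each other, although the rule used their means.

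All plants were bolting Col plants, wild type in every group. One leaf was lit at 1700 µmol per square metre and second, the high light treatment named HL, or warmed from a heat block, named HS. In HL+HS plants a single leaf took both treatments, while HL&HS plants had 1 leaf lit and another warmed. Exposure lasted 2 or 8 min, after which these leaves and the untreated stem were taken, and untreated plants gave leaves and stems at 0 min (CT). There were 3 libraries in each of 9 stem groups and 11 leaf groups, since the lit and the heated leaf of HL&HS plants were sequenced apart. The labels do not say whether the 3 libraries of a group came from separate plants, so p-values measure the spread between these libraries, which may be technical. No unstressed group at 2 or 8 min is among the samples, and the same 3 control libraries per tissue serve every comparison with control. In such a comparison the stress, the time since 0 min and the control libraries themselves cannot be told apart.

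Plants answer high light or heat on a single leaf with signals, among them waves of calcium, reactive oxygen and membrane potential, that travel through the vasculature and change transcripts in leaves and stems that were not stressed. Transcripts of a stem also follow the circadian clock, the light it receives and the tissues it is made of, such as xylem with its thickened walls, phloem and the green cortex. The 26 genes have roles in chlorophyll synthesis and light signalling, starch and sugar phosphate metabolism, chaperone function, specialized metabolism and the cell wall and cell surface.

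The 2 min libraries were deeper than the rest, with 31725824 to 47559552 counted reads against 11071918 to 12998149 at 0 and 8 min, so a comparison of 2 min with control or with 8 min also compares depth classes. Summed xylem and fibre wall markers stood at 71604 to 76485 normalized counts in control stems and at 1037 to 1144 in control leaves, as the tissue labels have it. Among the leaves, the 8 min group titled HL stood apart: 54 genes of at least 500 normalized counts in control stem and under 10 in control leaf, none of them among the 26, summed to 1502 to 1664 in its 3 libraries and to 286 to 333 in control leaves. Of the 8 min lit leaves of HL&HS plants, library 3 reached 1538 on the same sum and the others 566 and 697. The 8 min leaves titled HS summed to 495 to 628. For the 8 min single-stress leaf groups the titles and treatment tags name opposite stresses. The titles are used, and the leaf tests average over all 5 groups of a time, which does not depend on that choice.

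Across the 8 stressed stem groups, the lowest fold over control of a gene ranged from 1.51 to 1.99 and the highest from 1.72 to 5.25. All 24 stressed libraries lay above all 3 control libraries for 24 of the 26 genes, against 5.98% of the 15912 genes, which the rule favours. The exceptions were AT5G64870, with 20 of 24 stressed libraries above every control, and AT1G04660, with 23 of 24. The median fold of the 26 genes was lowest in the 2 min HL stems, at 1.71, and highest in the HL+HS stems, at 2.02 after 2 min and 2.01 after 8 min. The 2 min HL group held the lowest mean of 10 of the genes, while the 2 min and 8 min HL+HS groups held the highest of 9 and 7. Over all 15912 genes the median fold was between 0.994 and 1.01 in each group.

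**Figure D1:**
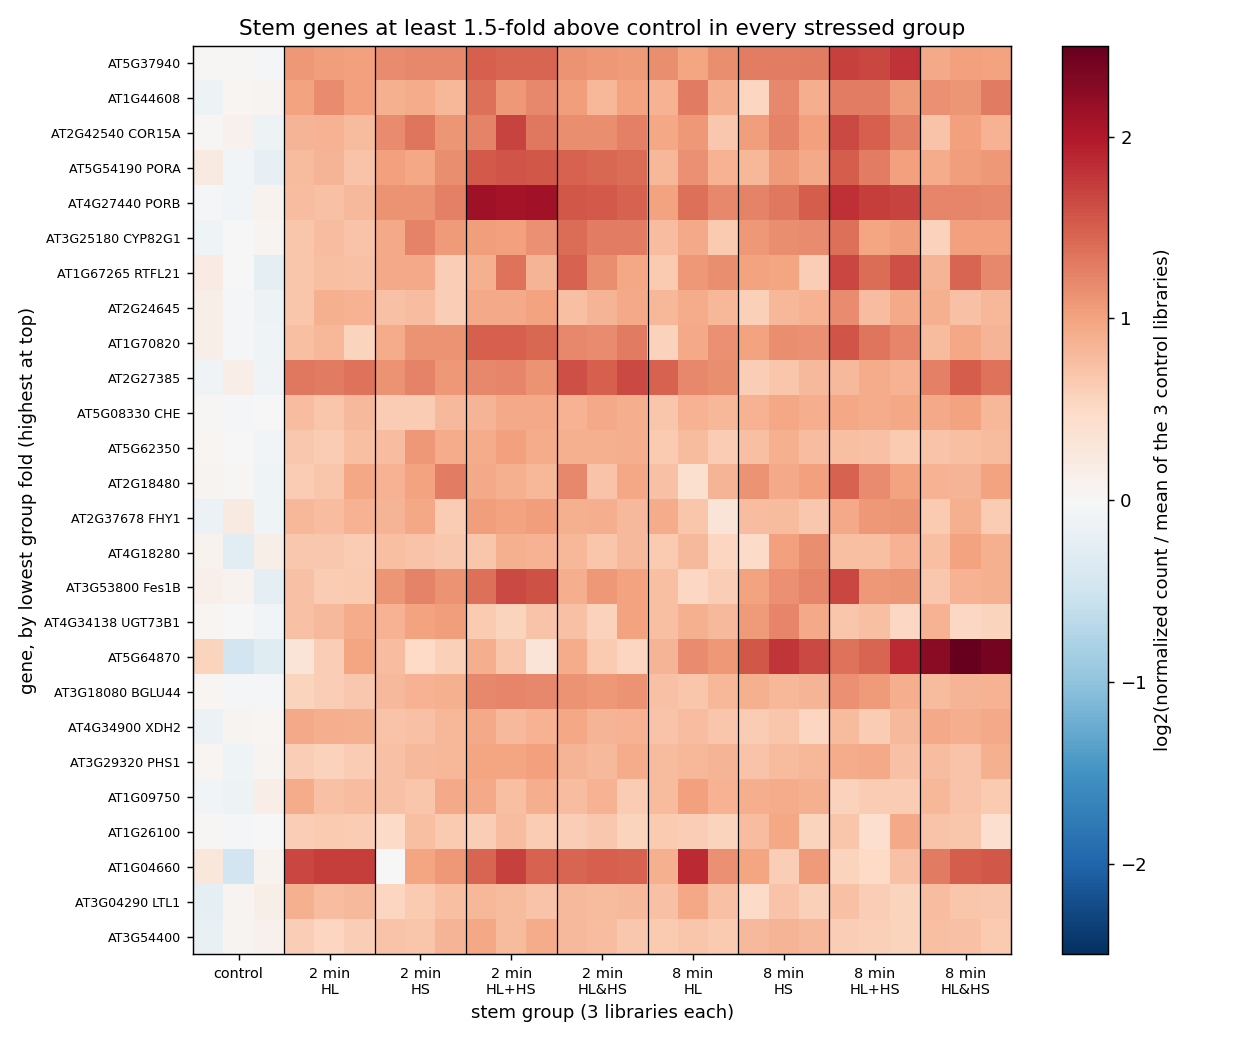
Level of each of the 26 genes (rows) in each of the 27 stem libraries (columns, 3 per group), as the log2 of the normalized count over the mean of the 3 control libraries. The stressed columns are red throughout for most genes, and the group means vary most in AT5G64870, then PORB, then AT1G04660.

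The 3 genes just inside the threshold were AT3G54400 and LTL1, both at a lowest fold of 1.51, and AT1G04660, also at 1.51. The 3 nearest outside were ABF1, a transcription factor of abscisic acid responses, at 1.498, GPAT3, a glycerol-3-phosphate acyltransferase, at 1.477 and TRM24 at 1.467. ABF1 averaged 35.3 ± 7.57 (SD, n = 3) normalized counts in control stems and TRM24 48.1 ± 7.10.

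The stem control stood apart from the stressed stems well beyond these genes. When the same rule was run with each stem group in turn in the place of the control, no other group gave more than 12 genes with all the others higher or more than 44 with all the others lower. The 8 min HL+HS stems gave 12 and 2, the 8 min HL&HS stems 6 and 44, and the remaining 6 groups at most 1 and 8. In leaf, the control gave 23 genes with every stressed group higher and 3 with every group lower, and there the 2 min HL+HS leaves gave 80 and 4. The 8 min HL+HS leaves gave 4 and 51. The largest counts in stem thus lay with the control, and in leaf with stressed groups. Set against each control stem library alone, 14, 20 and 19 of the 26 genes passed 1.5-fold in all 8 groups, and the coefficient of variation of the 3 control libraries had a median of 8.81% over the 26 genes.

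**Figure D2:**
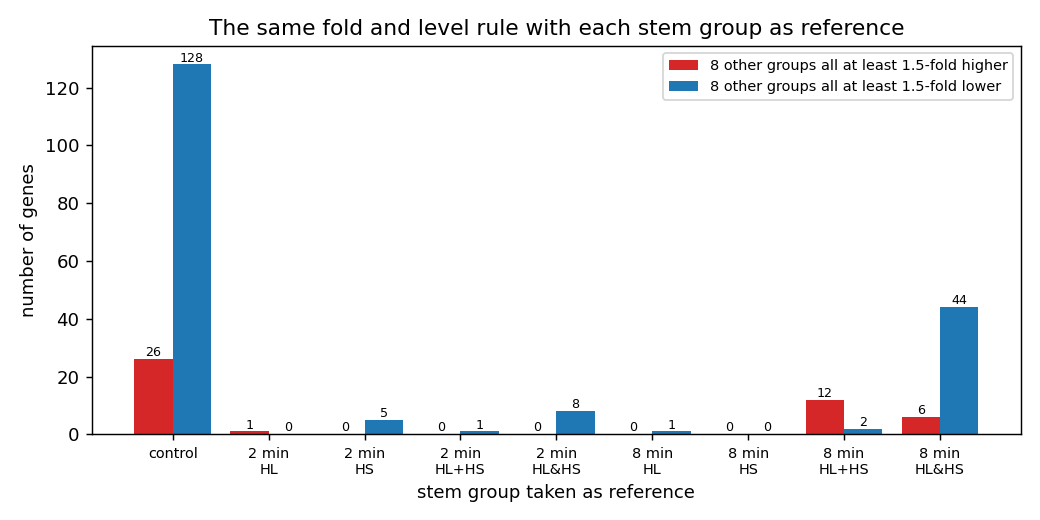
Number of genes with a mean of at least 50 whose other 8 stem group means were all at least 1.5-fold higher (red) or lower (blue) than the group on the horizontal axis. The control, with 26 higher and 128 lower, exceeds each stressed group, and the 8 min HL&HS stems follow with 44 lower.

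Other transcripts differed between control and stressed stems beside the 26 genes. Xylem and fibre wall markers summed to 32344 to 55751 in the 24 stressed stem libraries, below every control library. In limma with Benjamini-Hochberg adjustment over all genes, 11 of the 12 markers were lower over the 8 stressed groups and 1, the protease XCP1, was higher, where 23.2% of all genes were lower and 24.1% higher. The cellulose synthase CESA4 fell by 1.12 on the log2 scale (SE 0.033, limma adjusted p = 6.66e-27). The morning clock genes summed to 46736 to 47315 in control stems and to 27721 to 36762 in stressed stems, and 7 of 8 were lower, LHY at a log2 change of -0.83 (SE 0.030, adjusted p = 1.59e-24) and CCA1 at -0.75 (SE 0.030, adjusted p = 4.90e-23) in limma. PRR7 was the eighth, at 0.032 (limma adjusted p = 0.443).

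Of 7 flower and pollen markers tested, 6 were lower in stressed stems by limma, with a summed level of 245 to 319 in control and 53.6 to 336 in stressed libraries. All 7 cell division genes were higher, their sum at 1509 to 1693 in control and 1796 to 2426 in stressed libraries. Of 7 phloem markers 4 were lower and 1 higher, with sums of 9328 to 9604 in control and 7596 to 10015 in stressed libraries. Green tissue markers overlapped between the groups, at 1090710.5 to 1144913 and 1037774 to 1295592, with 5 of 13 higher and 1 lower, and epidermal markers did too, at 60973 to 61402 and 60015 to 78063, with 2 of 7 higher and 1 lower. In whole stems, fewer cells of a type and less RNA per cell cannot be told apart, and the part of tissue make-up or of clock time in the levels of the 26 genes was not tested.

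Marker sums also differed between the stressed groups. The 8 min HL+HS stems had the xylem sum nearest to control, at 53771 ± 3128 (SD, n = 3) against 73833 ± 2468, and a median fold of the 26 genes of 2.01. The 8 min HL&HS stems had the lowest, at 33232 ± 238, with a median fold of 1.84, and the 2 min HL stems followed at 33726 ± 1345, with 1.71. The morning clock sum was lowest in the HL+HS stems, at 28448 ± 1122 after 8 min and 30885 ± 201 after 2 min, the groups with the highest median folds, 2.01 and 2.02. It was highest among stressed groups in the 8 min HL&HS stems, at 35813 ± 852, and the 2 min HL stems, at 35327 ± 865, with median folds of 1.84 and 1.71, against 46998 ± 293 in control. The 8 min HL stems, at 31082 ± 992, were close in clock sum to the 2 min HL+HS stems but had a median fold of 1.77. The folds share the control libraries with the rule, and the part of either sum in them was not tested.

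**Figure D3:**
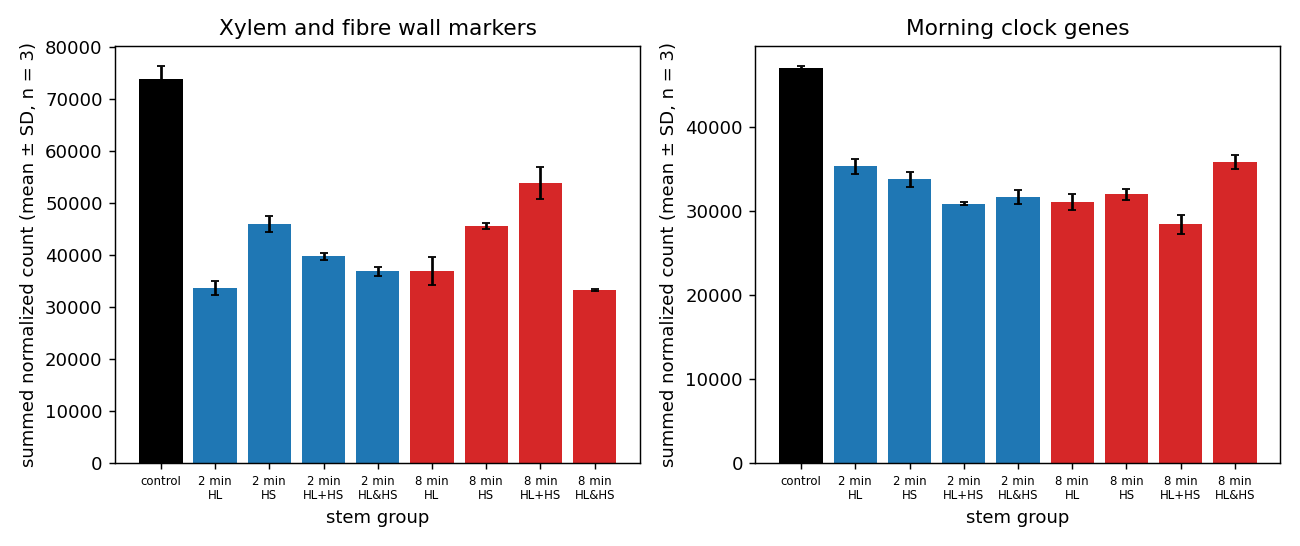
Summed normalized counts of 12 xylem and fibre wall markers and of 8 morning clock genes in each stem group (bars, mean; error bars, SD, n = 3 libraries). Each stressed group lies below the control in both panels, from 33232 to 53771 against 73833 for xylem and from 28448 to 35813 against 46998 for the clock genes.

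PORA and PORB, protochlorophyllide oxidoreductases that carry out the light-dependent step of chlorophyll synthesis, were both among the genes. PORA stood at 132, 108 and 98.0 normalized counts in the 3 control stems and at 184 to 336 (median 233) in the 24 stressed stems. Its group means ran from 1.73-fold of control in the 2 min HL stems to 2.93-fold in the 2 min HL+HS stems, with no overlap with control. PORB stood at 456, 447 and 497 in control stems and reached 2036, 1964 and 2004 in the 2 min HL+HS stems.

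The level of PORB also differed among the stressed groups. Its mean was 796 ± 23.4 (SD, n = 3) in the 2 min HL stems, 1052 ± 59.0 in the HS stems, 1337 ± 34.1 in the HL&HS stems and 2001 ± 36.1 in the HL+HS stems of the same time, and these groups did not overlap. At 8 min it was 1074 ± 132, 1197 ± 121, 1079.9 ± 8.12 and 1564 ± 72.3 in the same order, and the HL+HS libraries again lay above all others of their time. PORC, the third enzyme of the family, was at 3851 ± 38.8 in control stems and at 1.01- to 1.15-fold of that in the stressed groups. PORC and the other relatives named below were picked after the values of these data were seen.

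FHY1, which carries the light receptor phytochrome A into the nucleus, stood at 117, 151 and 119.9 in control stems and at 162 to 278 (median 234) in stressed stems. Its relative FHL was at 1.02- to 1.253-fold of control. AT5G08330, a TCP family transcription factor also known as CHE, which binds the promoter of the clock gene CCA1, stood at 339, 323 and 334 in control stems. Its 24 stressed values ran from 514 to 666, a narrow band well above the controls, and its group folds stayed between 1.62 and 1.94.

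**Figure D4:**
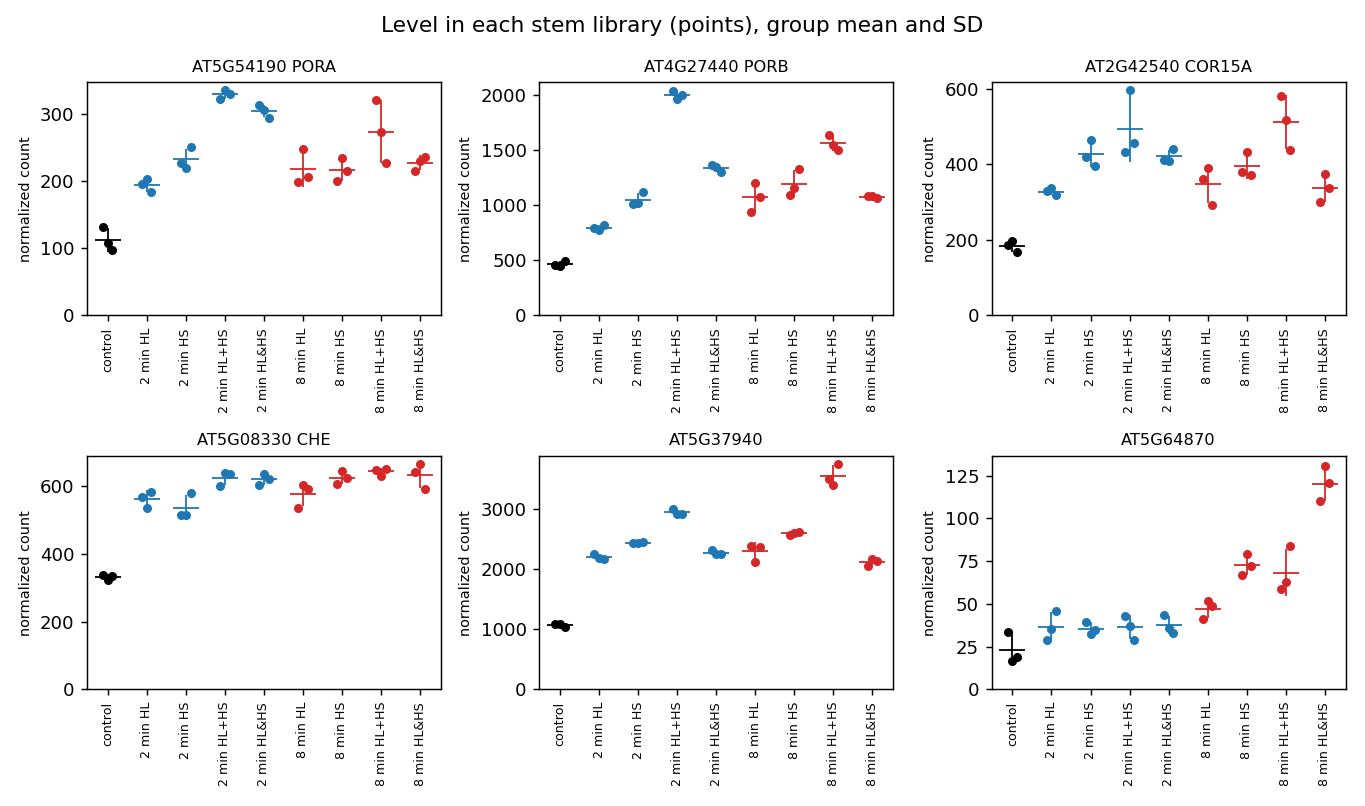
Normalized counts of 6 of the genes in each stem library (points), with group mean and SD (n = 3); control black, 2 min blue, 8 min red, axes from 0. PORB is highest in HL+HS stems at both times, AT5G08330 (CHE) is nearly level across stressed groups, and AT5G64870 is highest in the 8 min HL&HS stems.

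PHS1, the plastid starch phosphorylase, stood at 754, 677 and 770.3 in control stems and at 1101 to 1496 (median 1291) in stressed stems, without overlap. PHS2, the cytosolic phosphorylase, was at 1.15- to 1.69-fold of control. AT1G70820, annotated as a putative phosphoglucomutase, stood at 175, 152 and 147 in control and its group means ranged from 258 ± 24.9 (SD, n = 3) in the 2 min HL stems to 439.7 ± 9.55 in the 2 min HL+HS stems.

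The promoters of PORA, PHS1 and CYP82G1, a cytochrome P450 that makes volatile homoterpenes, are shown because they hold the evening element AAATATCT, the motif that the morning clock factors CCA1 and LHY bind, and no exon of another gene. Each is the 250 bases before the annotated gene start, 5′ to 3′ on the strand of the gene, from the RefSeq annotation of TAIR10.1. Capitals mark motifs found on either strand: the evening element, the G-box CACGTG, the I-box GATAAG and the rapid stress response element CGCGTT.
PORA (chr5:21992815-21993064, minus strand): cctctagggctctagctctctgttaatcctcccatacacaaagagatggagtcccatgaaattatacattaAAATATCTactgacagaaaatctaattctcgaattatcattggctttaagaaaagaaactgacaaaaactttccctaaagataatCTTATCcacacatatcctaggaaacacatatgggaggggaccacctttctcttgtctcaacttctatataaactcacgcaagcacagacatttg
PHS1 (chr3:11252557-11252806, plus strand): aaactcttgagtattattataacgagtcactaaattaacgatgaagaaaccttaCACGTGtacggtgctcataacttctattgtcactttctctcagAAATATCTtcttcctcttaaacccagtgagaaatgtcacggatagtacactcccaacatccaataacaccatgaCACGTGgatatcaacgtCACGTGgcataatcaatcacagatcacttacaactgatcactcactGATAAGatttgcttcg
CYP82G1 (chr3:9169302-9169551, minus strand): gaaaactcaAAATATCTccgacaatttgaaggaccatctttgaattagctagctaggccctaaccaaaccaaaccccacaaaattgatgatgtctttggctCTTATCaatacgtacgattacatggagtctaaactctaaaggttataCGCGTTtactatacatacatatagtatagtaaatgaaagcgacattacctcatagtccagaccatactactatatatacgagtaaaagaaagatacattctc
PORA holds its evening element 179 bases before the start, PHS1 153 and CYP82G1 241.

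Of the 26 promoters of this length, 5 hold an evening element, or 19.2%, against 4.83% of the 15891 promoters of genes that reached a mean of 50 in stem. The other two belong to PORB and AT1G70820, whose windows also cover exons of a neighbour. The I-box is in 8 (30.8% against 12.4%) and the rapid stress response element in 4 (15.4% against 2.69%), those of CYP82G1, AT3G54400, XDH2 and AT5G64870. The XDH2 window also covers exons of a neighbour. The G-box is in 2 (7.69% against 7.47%), the heat shock element GAANNTTC in 2 (7.69% against 9.06%), the W-box TTGACC in 1 (3.85% against 11.7%), the site II element GGCCCA in 2 (7.69% against 18.2%) and the telo-box AAACCCTA in 0 (against 3.57%). Both strands were searched, and no matches in the 26 windows overlapped. A match of letters is a description of the sequence and does not show that a factor binds there.

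COR15A, a chloroplast protein that protects membranes in the cold and the sole gene of the 26 on any of the 16 lists of genes examined, stood at 186, 197 and 167 in control stems and at 291 to 595 (median 402) in stressed stems. Its highest group means were 511 ± 70.5 (SD, n = 3) in the 8 min HL+HS stems and 494 ± 88.2 in the 2 min HL+HS stems. COR15B, its neighbour, was at 0.899- to 1.69-fold of control. Of the 11 other abscisic acid and cold genes tested in stem, limma called 2 higher, ERD10 at a log2 change of 0.61 (SE 0.040, adjusted p = 3.57e-16) and COR47 at 0.13 (SE 0.040, adjusted p = 0.00669), and 5 lower, among them the phosphatase HAB1 at -0.46 (SE 0.034, adjusted p = 8.89e-15). In the same comparison 24.1% of all genes were higher and 23.2% lower.

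Fes1B, of a family that exchanges nucleotides on Hsp70 chaperones, stood at 54.3, 52.9 and 42.2 in control stems. It reached 129, 155 and 151 in the 2 min HL+HS stems and 84.2, 71.6 and 76.5 in the 8 min HL stems, all above the controls. Fes1A was at 0.857- to 1.42-fold of control. AT5G64870, a membrane protein of the SPFH/Band 7 family to which the flotillins belong, was the least uniform gene: its control values were 33.7, 16.5 and 18.6, its 2 min group means lay between 1.55 and 1.63 times control, and the 8 min HL&HS stems reached 110.1, 130.5 and 121. Its lowest control library rested on 10 reads, and the highest control library overlapped 4 of the 24 stressed libraries.

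Among the enzymes, AT5G37940, a zinc-binding dehydrogenase, had the largest lowest fold of the 26, 1.99. It stood at 1087, 1084 and 1036 in control stems, at 2063 to 3755 (median 2418) in stressed stems and at 3510.3, 3408 and 3755 in the 8 min HL+HS stems. Of its 50-base windows, 24.4% also occur in other genes, most often in AT5G38000 and AT5G37980, so reads may have been divided between copies. In the same cluster on chromosome 5, AT5G37970 was at 0.928- to 4.36-fold, AT5G38000 at 1.11- to 2.47-fold, AT5G37950 at 1.095- to 1.36-fold and AT5G37980 at 0.743- to 1.47-fold of control.

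CYP82G1 stood at 79.2, 86.0 and 89.5 in control stems and at 127 to 224 (median 174) in stressed stems, highest in the 2 min HL&HS stems with 224, 206 and 206. BGLU44, a beta-glucosidase, stood at 786, 751 and 750.0 in control and at 1119 to 1781 (median 1396) in stressed stems. XDH2, a xanthine dehydrogenase of purine breakdown, stood at 170.1, 199 and 196 in control and at 272 to 369.7 (median 333) in stressed stems, while its tandem copy XDH1, with which it shares 8.25% of its 50-base windows, was at 0.887- to 1.01-fold of control. The glucosyltransferase UGT73B1 stood at 42.5, 41.4 and 38.9 in control and at 58.5 to 95.5 (median 70.2) in stressed stems. Another gene covers 34.1% of its exons on the opposite strand, and whether reads were counted by strand is not given in the sources used here.

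AT2G27385, of the Ole e 1 and extensin family, stood at 44.0, 52.9 and 43.9 in control stems and was highest in the 2 min HL&HS stems, with 143, 133 and 147. AT5G62350, of the invertase and pectin methylesterase inhibitor family, stood at 617, 597 and 566 in control and 919 to 1259.8 (median 1014) in stressed stems. The aspartyl proteases AT1G09750 and AT3G54400 had the highest means of the 26 over the stem libraries. AT1G09750 stood at 1390.4, 1340.2 and 1645 in control and 2179 to 2967 (median 2507) in stressed stems.

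AT3G54400 stood at 1363, 1612 and 1657 in control stems and 2254 to 3018 (median 2523) in stressed stems. LTL1, a GDSL lipase first described in lithium tolerance, stood at 961, 1175 and 1245 in control and 1566 to 2199.9 (median 1871) in stressed stems. Neither overlapped with its controls. AT4G18280, a glycine-rich wall protein-like gene, stood at 61.6, 48.0 and 64.2 in control and 80.6 to 130.4 (median 97.3) in stressed stems. AT1G04660, another glycine-rich gene, stood at 30.8, 18.2 and 27.03 in control, and of its 2 min HS libraries, at 25.4, 49.9 and 53.9, the lowest lay within the control range. Its 2 min HL stems, at 80.7, 84.1 and 83.5, were its highest group.

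The remaining genes were RTFL21, AT2G24645, AT2G18480, AT1G26100 and AT1G44608. RTFL21, a member of a family of small peptides named after ROTUNDIFOLIA, stood at 36.7, 31.4 and 27.03 in control stems and 48.3 to 101 (median 62.3) in stressed stems, and AT2G24645, a B3 transcription factor, at 151, 132 and 125 and 207 to 310.1 (median 244). The transporter AT2G18480, of the major facilitator superfamily, stood at 45.5, 44.7 and 40.5 in control and 57.9 to 122 (median 83.5) in stressed stems. AT1G26100, a cytochrome b561 with 30.4% of its exons covered by genes on the other strand, stood at 125, 117 and 123 and 162 to 239 (median 190.1), and the uncharacterized AT1G44608, with as few as 17 reads in a control library, at 24.9, 28.1 and 28.7 and 39.5 to 71.0 (median 56.6). In all 5 the stressed libraries lay above the controls.

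The 26 genes lie on all 5 chromosomes, with 6, 5, 6, 4 and 5 genes on chromosomes 1 to 5, and the nearest pair, Fes1B and AT3G54400, is 207064 bases apart. Their exons had a median length of 1617 bases, against 1850.5 for the 15892 annotated genes that reached a mean of 50 in stem, and a median GC content of 42.0% against 41.2%. By exon number, 5 of the 26 have a single exon (19.2% against 12.2%).

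Treated leaves gave a measure of the genes that shares no library with the rule. The test took genes that averaged 10 or more normalized counts in leaf, which 21 of the 26 did. The other 5, AT5G37940, CYP82G1, RTFL21, AT1G44608 and AT1G04660, were near 0 in leaf, with control means of 2.30 to 4.06. AT2G18480 and LTL1 passed with control means under 10, and so only through their levels in stressed leaves.

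At 2 min, limma with Benjamini-Hochberg adjustment called 18 of the 21 genes higher and 0 lower in stressed leaves than in control leaves, against 17.8% higher and 12.3% lower of all 18231 genes. At 8 min it called 17 higher and 0 lower, against 20.8% and 15.8%. The median log2 change of the 21 was 0.64 and 0.73, and that of all genes 0.0091 and 0.0011. Among the 19 genes with a control leaf mean of at least 10, 17 and 16 were called higher and 0 lower, against 17.6% higher and 12.5% lower of such genes at 2 min and 20.4% and 16.1% at 8 min. The leaf groups share the 3 control libraries, and the 2 counts are not independent. Green photosynthetic tissue markers moved with these counts: limma called 12 of 13 higher at 2 min and 13 of 13 at 8 min, with medians of 0.35 and 0.34 on the log2 scale. Their sum was 1729466 to 1799488 in control and 1808165 to 2568626 in stressed leaf libraries, without overlap, and their part in the result was not tested.

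AT1G70820 had the smallest p at both times. It stood at 513, 453 and 596 in control leaves and at 954 to 1993 (median 1252) in the 30 stressed leaf libraries, without overlap. Its log2 change by limma was 1.38 (SE 0.049, adjusted p = 4.28e-24) at 2 min and 1.31 (SE 0.049, adjusted p = 7.39e-25) at 8 min, higher in 10 of 10 stressed leaf groups. Its highest leaf group, as in stem, was 2 min HL+HS, at 1873, 1988 and 1993.

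PHS1 stood at 1004, 916 and 984 in control leaves and 1329 to 1987 (median 1503) in stressed leaves, a log2 change of 0.70 (SE 0.037, adjusted p = 1.81e-18) at 2 min and 0.63 (SE 0.037, adjusted p = 5.72e-18) at 8 min by limma. AT5G08330 stood at 215, 286 and 264 and 388 to 619.8 (median 486), with changes of 0.83 (SE 0.065, adjusted p = 2.41e-13) and 1.04 (SE 0.065, adjusted p = 5.20e-17) by limma. COR15A stood at 469, 427 and 434 and 571 to 1096 (median 784), with changes of 0.74 (SE 0.072, adjusted p = 7.41e-11) and 0.86 (SE 0.072, adjusted p = 4.93e-13) by limma. In all 3 genes every stressed leaf library lay above every control leaf library.

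Fes1B behaved alike, at 49.7, 33.7 and 35.3 in control and 63.7 to 200.5 (median 117) in stressed leaves, with limma log2 changes of 1.45 (SE 0.12, adjusted p = 1.05e-12) and 1.54 (SE 0.12, adjusted p = 5.46e-14). Of the 21 genes, 8 showed such a separation of all 30 stressed from all 3 control libraries, against 2.56% of the genes tested: these 5, AT2G27385, AT4G18280 and AT1G26100. In 14 of the 21 all 10 stressed group means were above control, against 13.7%. Among the 14 was AT2G18480, which passed the filter on low values only through its stressed leaves.

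PORB was less uniform in leaf than in stem. It stood at 435, 367 and 384 in control leaves, at 401, 377 and 368 in the 2 min HL leaves and at 1271, 1359.7 and 1361 in the 2 min HL+HS leaves, so the HL leaves overlapped the controls while the HL+HS leaves lay far above. Averaged over the 5 groups, its log2 change by limma was 0.73 (SE 0.049, adjusted p = 2.68e-15) at 2 min and 0.80 (SE 0.049, adjusted p = 2.56e-17) at 8 min. PORA, at 7.11, 11.8 and 21.2 in control leaves, was likewise highest in the 2 min HL+HS leaves, at 80.4, 75.0 and 84.9, and its log2 changes were 1.19 (SE 0.22, adjusted p = 4.71e-05) at 2 min and 1.2 (adjusted p = 2.78e-05) at 8 min by limma.

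**Figure D5:**
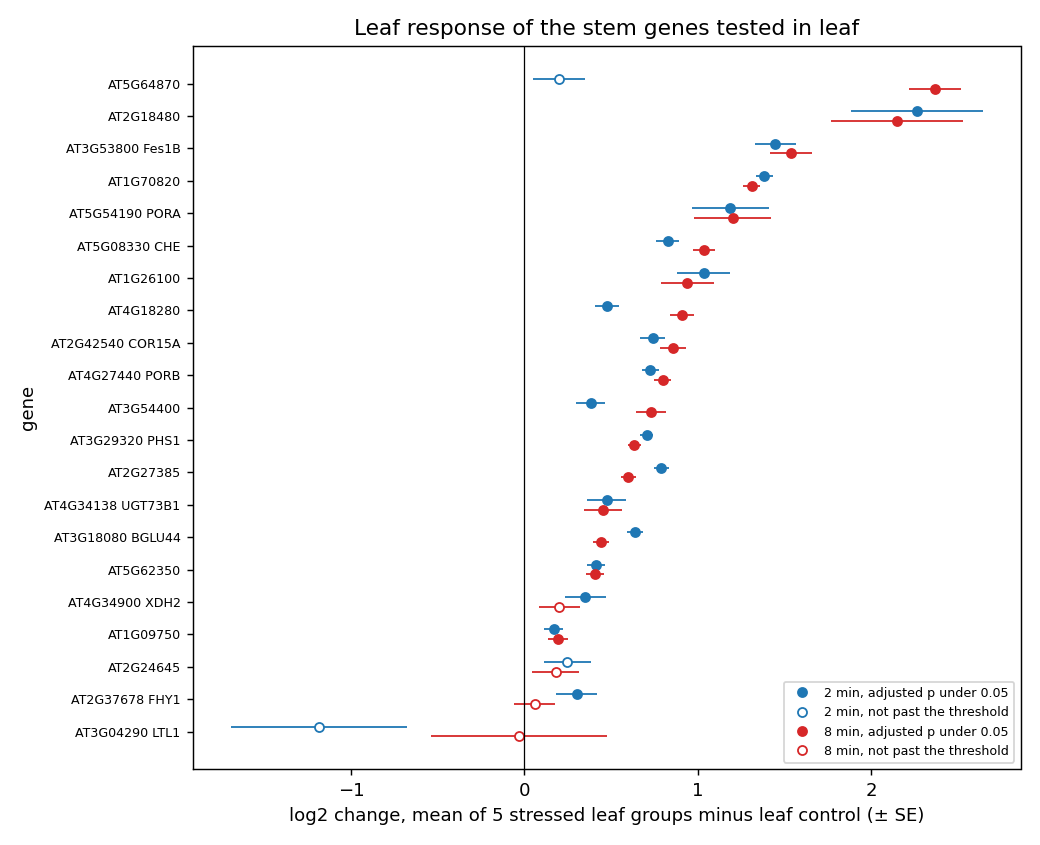
Log2 change in treated leaves (mean of 5 stressed groups minus leaf control, ± SE) of the 21 genes that could be tested, at 2 min (blue) and 8 min (red); filled points passed an adjusted p of 0.05 in limma. The changes are above 0 at both times for each of the 21 genes except LTL1, which did not pass at either time.

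Few genes did not pass. At 2 min these were AT2G24645 at 0.25 (limma adjusted p = 0.168), AT5G64870 at 0.20 (limma adjusted p = 0.339) and LTL1 at -1.19 (limma adjusted p = 0.0734). At 8 min they were AT2G24645, XDH2 at 0.20 (limma adjusted p = 0.189), FHY1 at 0.059 (limma adjusted p = 0.734) and LTL1 at -0.030 (limma adjusted p = 0.97). LTL1 stood at 8.88, 16.8 and 3.53 in control leaves and at 77.2, 126 and 123 in the 8 min leaves titled HL, which also carried other stem genes. AT5G37940 stood at 73.7, 57.0 and 67.1 and CYP82G1 at 22.8, 22.4 and 12.7 in those same 3 libraries, against 3.55, 5.05 and 3.53 and 3.55, 1.68 and 3.53 in control leaves.

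Without those 3 libraries and library 3 of the 8 min lit HL&HS leaves, a choice made after the values were seen, 20 genes could be tested at 8 min and the same 17 were called higher and 0 lower, against 22.6% higher and 18.6% lower of all genes. The other 8 min lit HL&HS leaves and the 8 min leaves titled HS, whose sums of stem genes were raised less, stayed in. LTL1 no longer passed the filter on low values. AT5G64870 changed by 2.54 on the log2 scale, against 2.37 with all libraries.

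The rule itself, run in leaf over the 10 stressed groups, took 23 genes, 0.149% of the 15456 with a leaf mean of at least 50. Of these, 4 were among the 26 stem genes: AT1G70820, Fes1B, AT5G08330 and AT1G26100, with lowest leaf folds of 1.88, 1.75, 1.62 and 1.59. They are 15.4% of the stem genes and 17.4% of the leaf genes.

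Lists of stress genes, none of which holds any of the 26, were counted in leaf at each time, and in stem over all 8 stressed groups of both times, so the leaf and stem counts are not matched in time. In leaf, limma called 9 of 13 heat shock genes higher and 1 lower at 2 min and 13 higher at 8 min, and of 13 jasmonate genes 12 and 13 higher. Reactive oxygen, wound and touch genes were higher in 9 of 17 cases and lower in 4 at 2 min, and higher in 15 and lower in 1 at 8 min. Of 13 salicylic acid and immunity genes, limma called 11 lower and 0 higher at 2 min. At 8 min it called 7 of them higher and 4 lower. In stem over both times, 3 of 9 heat shock genes were higher and 1 lower, 8 of 12 jasmonate genes were higher and 0 lower, and 11 of 17 reactive oxygen genes were higher and 2 lower by limma. The heat shock sum differed between stem groups, from 0.733 times control in the 2 min HL stems to 2.11 times in the 8 min HL&HS stems. Stem counts of higher and lower genes were 5 and 1 of 12 for salicylic acid and immunity, 2 and 1 of 6 for the evening clock, 4 and 3 of 7 for low sugar, 3 and 1 of 7 for flavonoids and 4 and 1 of 8 for glucosinolates. Of all genes, limma called 17.8% higher and 12.3% lower in leaf at 2 min, and 20.8% and 15.8% at 8 min. In stem it called 24.1% of all genes higher and 23.2% lower. Whether leaf and stem differ in these lists was not tested. In leaf the morning clock genes summed to 85742 to 89395 in control and 67182 to 87302 in stressed libraries, with 4 of 8 lower and 2 higher at 2 min by limma and 5 lower and 3 higher at 8 min. The xylem markers, lower in stressed stems, were lower in 1 and higher in 2 of 9 tested in leaf at 2 min, and lower in 1 and higher in 6 at 8 min.

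Stressed stems were then compared with each other, without the control. The rule used the means of these same groups. The 26 genes are thus a selected set, and the shares of all genes given beside them are not a matched background. At 2 min, stems of plants given both stresses exceeded those given a single stress in 11 of the 26 genes by limma, with 0 lower, against 2.38% higher and 2.26% lower of all 18428 genes. PORB averaged 1669 with both stresses and 924 with 1, a log2 difference of 0.84 (SE 0.044, adjusted p = 1.07e-17) by limma. The others were BGLU44 at 0.42 (SE 0.033, adjusted p = 2.27e-12), PORA at 0.58 (SE 0.072, adjusted p = 2.64e-07), AT1G70820 at 0.47, Fes1B at 0.35, CYP82G1 at 0.29, COR15A at 0.28, PHS1 at 0.23, AT5G08330 at 0.18, AT5G37940 at 0.16 and AT3G54400 at 0.15, all by limma.

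At 8 min the same comparison called 6 higher and 2 lower, against 8.16% and 8.03% of all genes. AT5G37940 had the smallest p, at 0.17 (SE 0.030, adjusted p = 6.97e-05), and PORB, at 0.20 (SE 0.044, adjusted p = 0.00117), AT5G64870, BGLU44, RTFL21 and XDH2 were also higher by limma. AT1G09750 was lower by limma, with means of 2329 and 2726 and a log2 difference of -0.23 (SE 0.048, adjusted p = 8.72e-04), as was UGT73B1 at -0.29 (SE 0.097, adjusted p = 0.0344). Whether the 2 min and 8 min differences differ was not tested.

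Stems of plants with the 2 stresses on separate leaves were also compared with stems of plants that had both on 1 leaf. At 2 min, limma called 3 lower and 1 higher in HL&HS than in HL+HS stems, against 1.66% and 1.47% of all genes: PORB at -0.58 (SE 0.062, adjusted p = 1.53e-08), AT5G37940 at -0.37 (SE 0.042, adjusted p = 3.42e-08) and Fes1B at -0.53 (SE 0.13, adjusted p = 0.0141). AT2G27385 was higher, at 0.40 (SE 0.11, adjusted p = 0.0382) by limma, a call lost when any 1 of the 6 libraries was left out. The counts depended on the fit: edgeR, DESeq2 and limma on the compared groups alone called 7, 6 and 6 lower and 2 higher each. At 8 min limma on all stem libraries called 8 lower and 4 higher, 30.8% and 15.4% of the 26, against 21.1% and 16.7% of all genes. Such calls were thus common among all genes at 8 min, and the share higher was near that of all genes.

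AT5G37940 showed the firmest of the 8 min differences, at 2063, 2174 and 2139 in HL&HS stems and 3510.3, 3408 and 3755 in HL+HS stems. Its log2 difference was -0.74 (SE 0.042, adjusted p = 2.31e-17) by limma. PORB at -0.53, COR15A at -0.60, AT1G70820 at -0.51, Fes1B at -0.48, FHY1 at -0.31, PORA at -0.25 and BGLU44 at -0.20 were lower as well by limma. AT2G27385 at 0.50 (SE 0.11, adjusted p = 4.89e-04), AT1G04660 at 0.84, AT5G64870 at 0.82 and XDH2 at 0.19 were higher in HL&HS stems by limma.

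From 2 to 8 min, stressed stems differed by limma in 9 of the 26 genes, 3 higher and 6 lower, against 11.7% and 8.11% of all genes, and this comparison also sets the shallower libraries against the deeper. AT5G64870 averaged 36.4 at 2 min and 77.2 at 8 min, a log2 difference of 0.99 (SE 0.10, adjusted p = 5.30e-10) by limma. AT5G62350 was lower at 8 min, at -0.13 (SE 0.028, adjusted p = 8.04e-04) by limma. The other calls were of 0.29 or less in size on the log2 scale.

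In leaf the same comparison called 7 higher and 5 lower of the 21, against 18.1% and 20.6% of all genes. AT5G64870 was at 24.9, 35.3 and 24.7 in control leaves and at 19.7 to 216 (median 57.9) over all stressed leaves, and averaged 32.8 at 2 min and 154 at 8 min, a log2 difference of 2.17 (SE 0.086, adjusted p = 4.53e-24) by limma. Thus in leaf and in stem its 8 min level was above its 2 min level. Its relatives FLOT1 and FLOT2 were low in control stems, at 10.6 ± 4.08 and 1.59 ± 1.66 (SD, n = 3), with stressed stem means of 2.65 to 8.85 and 0.507 to 1.94. In leaf FLOT1 averaged 581 in control and 215 to 805 in the stressed groups, and FLOT2 454 and 132 to 562. AT2G27385 had the smallest p among the genes lower at 8 min, at -0.19 (SE 0.026, adjusted p = 1.04e-07) by limma. Without the 4 leaf libraries that carried other stem genes, limma called 5 higher and 3 lower of 20, against 17.5% and 20% of all genes: PHS1, AT1G70820 and PORB lost their calls and LTL1 was not tested.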

How the data were processed

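Libraries of RNA from 33 leaf and 27 stem samples were compared. The values the authors deposited are gene counts divided by 1 size factor per library, a normalized signal. The submitters' processing notes name STAR 2.4.0.1, DESeq2 1.20.0, FastQC 0.11.7 and the genome build TAIR10, and other settings are not given in the sources used here. Dividing by each library's smallest step recovered whole reads for 100.0% of values, within 0.001 reads. Columns that could not be assigned to a sample numbered 0. Libraries of a group differed by more than sampling noise, with a chi-square per gene of 1.34 to 6.60 over 60 pairs.

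The 26 genes, gene lists, relatives, motifs and tests were chosen with earlier results of these data known. Tests were made with limma 3.58.1 in R 4.3.3 on log2(normalized count + 1), a scale that understates changes of low genes, over genes with a mean of at least 10 in the tissue. All libraries of a tissue entered 1 fit, p-values were two-sided, and the Benjamini-Hochberg threshold was 0.05. edgeR 4.0.16 and DESeq2 1.42.0 on the recovered reads were alternatives, and the code was tested on simulated data. At 2 and 8 min in leaf, edgeR called 5047 and 5908 genes.

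Genes were named where they were among the 10 with the largest lowest fold, the 5 with the highest stem mean, the 3 on either side of the threshold, on a list, or had the smallest p of a comparison. The others of the 26 were named for completeness. Of the gene identifiers, 32548 of 32833 matched the RefSeq annotation of TAIR10.1.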

Additional observations from a re-analysis of the deposited data

Results flagged for a closer look

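In treated leaves, the change from control at 8 min differed from that at 2 min in 12 of the 21 genes tested, by limma's test of the difference between the times with Benjamini-Hochberg adjustment. Calls of a rise took 33.3% of the 21 genes, against 18.1% of all 18231 genes tested in leaf. Calls of a fall took 23.8%, near the 20.6% of all genes. On the log2 scale the 8 min level minus the 2 min level was above 0 for COR15A at 0.12, LTL1 at 1.16, AT3G54400 at 0.35, AT4G18280 at 0.43, PORB at 0.070, AT5G08330 at 0.21 and AT5G64870 at 2.17, and below 0 for AT1G70820 at -0.074, AT2G27385 at -0.19, FHY1 at -0.24, BGLU44 at -0.20 and PHS1 at -0.070. In stems, the change from control at 8 min differed from that at 2 min in 9 of the 26 genes, by limma's test of the difference between the times with Benjamini-Hochberg adjustment. Here 3 were higher and 6 lower at 8 min, 11.5% and 23.1% of the 26, against 11.7% and 8.11% of all genes. On the log2 scale the 8 min level minus the 2 min level was above 0 for AT5G08330 at 0.081, AT5G37940 at 0.079 and AT5G64870 at 0.99, and below 0 for AT1G04660 at -0.29, AT2G27385 at -0.25, BGLU44 at -0.080, XDH2 at -0.11, PORA at -0.16 and AT5G62350 at -0.13. Because the 2 min libraries were sequenced more deeply than the 8 min libraries, time and depth cannot be told apart in these differences. The leaf values of LTL1, PHS1, AT1G70820 and PORB moved with the 4 leaf libraries that carried other stem genes. For PORB the plain mean in leaf was lower at 8 min, at 689 against 718 at 2 min, although its log2 difference was above 0.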

How the results depend on the processing

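The number of genes that met the rule depended on its thresholds: 70 at a minimum mean of 10, 15 at 200, 253 at a lower fold, 0 at a fold of 2, 65 over the 2 min groups alone and 89 over the 8 min groups alone. Scaling over stem libraries gave 27, scaling by total reads 25 and group medians 28. Leaving out 1 library gave 24 to 39, with 33 to 39 when it was a control. In leaf at 2 min, 1 gene was lower with no filter on low values, with edgeR and with DESeq2, against 0, and 0 to 1 with a library left out. For both stresses against single at 8 min, 1 gene was lower with edgeR, DESeq2 or the compared groups alone, against 2, and 1 to 2 with a library left out. For HL&HS minus HL+HS at 2 min, the same settings gave 2 higher each, against 1, and 7, 6 and 6 lower, against 3. With a library left out there were 0 to 0 higher and 2 to 3 lower. For leaf 8 min minus 2 min, 3 genes were lower without the 4 leaf libraries that carried other stem genes, against 5, a setting chosen after seeing the data. The causes were not tested. Replicate numbers did not pair libraries: the mean correlation of same-numbered libraries was -0.00014 in stem and 0.012 in leaf. With the replicate number as a block, 18 and 17 genes were higher in leaf at 2 and 8 min, and no count of calls among the 26 genes changed. Single genes were followed under the alternatives in 33 results only: those with the smallest p of a comparison and all tested genes in leaf at 8 min. Results with the smallest p are the least likely to change, and runs with a library left out entered only by their lowest and highest change. Of these 319 values, 316 kept direction and call, 3 lost the call and 0 reversed. The calls that PHS1, AT1G70820 and PORB lost in leaf 8 min minus 2 min are not among them. The call lost was that of AT2G27385 in HL&HS minus HL+HS at 2 min, at 0.37 to 0.44, and that of AT1G09750 in leaf at 8 min, at 0.16. Genes with few reads in control stems, such as AT5G64870 with 10 in 1 library, are the least precise.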
